A study of Mus musculus with 32 samples.

Results

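The livers of Fatp2-/- mice (KO) on the control diet (CD) were compared after 24 h and after 4 h of fasting. The comparison holds 8 of the 32 libraries of the study, 4 fasted for 24 h and 4 fasted for 4 h, and was defined by genotype, diet and hours of fasting alone. All mice were C57BL/6 males killed with CO2 at 16 weeks of age, and each library is polyA RNA of a liver slice. The labels give each library its own number but do not state that each came from a separate animal, so p-values measure the spread between these samples. CD is the control for a ketogenic diet (KD), and both were fed from 12 weeks of age. Wild type mice (WT) on CD and KO mice on KD, fasted for the same 4 or 24 h (4 libraries each), served as the comparisons and share no library with the 8. How the Fatp2 gene was disrupted, the time of day at which livers were taken and whether the groups were processed together are not stated in the labels. Sample titles carry numbers that do not overlap between the genotypes, nor between the fasting times of the same genotype. Any batch that follows those numbers therefore cannot be told apart from genotype or from fasting time. This limit holds for every change with fasting and every difference between KO and WT livers given below, in level or in change.

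Fatp2, encoded by Slc27a2, carries long-chain fatty acids into hepatocytes and activates very long-chain fatty acids for peroxisomes. During a fast the liver stops making fatty acids and cholesterol from sugar, as insulin and the SREBP transcription factors fall away. It then burns fatty acids released by adipose tissue, and these fatty acids also act as ligands of the nuclear receptor PPARα, which switches on genes of fatty acid oxidation and ketone body formation. Glucagon and glucocorticoids maintain glucose output from amino acids in the same period.

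The targeted gene was examined first. Slc27a2 (ENSMUSG00000027359; chromosome 2, 126552407 to 126588243, GRCm38) stood at 207, 198, 204 and 121 CPM (read counts relative to the normalised library size) in the 4 KO livers fasted for 4 h and at 278, 286, 309 and 308 CPM in those fasted for 24 h. All 8 values lay below the lowest of the 8 WT livers on CD, 905 CPM. The transcript still rose with the long fast in KO livers, with a log2 fold change of 0.69 ± 0.18 (SE, edgeR quasi-likelihood test, Benjamini-Hochberg adjusted p = 0.0103, and 0.0545 without KO CD 4 h replicate 4, the lowest library). The rise in WT livers was 0.97 ± 0.19, and the difference between the genotypes did not pass (adjusted p = 0.76). Reads that remain in a disrupted gene say nothing of whether they encode protein.

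Some of the 24 h libraries stood apart. At 24 h, replicates 1 and 2 held transcripts of skeletal muscle summing to 793 and 1600 CPM, against 110 and 142 CPM in replicates 3 and 4 and 82.8 to 95.8 CPM in the 4 h libraries (65 of 79 markers tested). Of these 65 genes 40 rose and none fell, and all genes of a set of 109 muscle genes were left out of the findings. On 68 genes that separate the diets in WT livers, where 0 is the mean of CD and 1 the mean of KD at the same fasting time, the 4 h libraries lay between -0.11 and 0.03. The 24 h libraries lay at 0.32, 0.32, 0.63 and 1.04, so the last, the library labelled KO CD 24 h replicate 4, was at the level of KD. The library labelled KO KD 24 h replicate 4 lay at 0.54, while the other 3 of its group lay between 1.0 and 1.04. Whether these 2 libraries were exchanged was not tested. The log counts of replicates 1 and 2 correlated at 0.9802 and those of replicates 3 and 4 at 0.9771, against 0.9541 to 0.9598 across these pairs. The libraries with muscle transcripts are 4 of the 32: KO CD 24 h replicates 1 and 2, WT CD 24 h replicate 1 and KO KD 4 h replicate 4. Those near the other diet are KO CD 24 h replicate 4 and KO KD 24 h replicate 4. Calls of named genes that are lost or gained without either set are given beside them. Leaving out the first set therefore changes the WT and KD comparisons as well as the KO livers on CD. Total counts of the 8 libraries ranged from 14359718 to 24700310, and 3 counts in a library correspond to 0.122 to 0.202 CPM.

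Of 14438 genes tested, 2703 (18.7%) changed between 4 and 24 h of fasting in KO livers on CD at an adjusted p under 0.05. Of these 1295 rose (8.97% of the genes tested) and 1408 fell (9.75%), and 914 changed at least 2-fold, 525 up and 389 down. These totals still include the muscle set, of which 57 genes passed, all of them among those that rose. The 4 libraries of each group did not overlap in 3236 genes (22.4%), 1395 higher (9.66%) and 1841 lower (12.8%) at 24 h. The median log2 fold change of all tested genes was -0.01. Counts of pathway members below are to be read against these shares. In WT livers on CD 1283 of the 14438 genes rose and 1387 fell, and in KO livers on KD 659 rose and 696 fell.

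**Figure D1:**
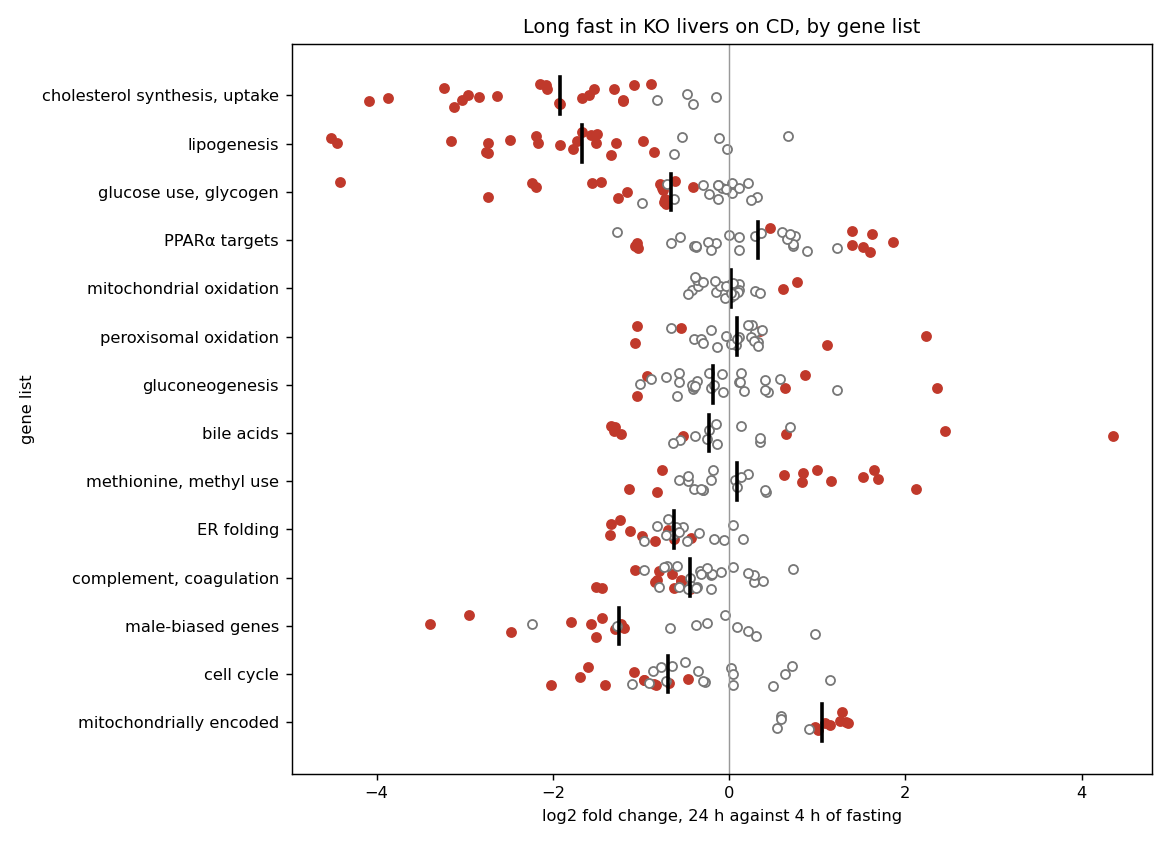
Log2 fold change from 4 to 24 h of fasting in KO livers on CD (horizontal axis) for each tested member of 14 gene lists (rows). Filled points passed an adjusted p under 0.05, open points did not, and the black bar is the median of the list, which was -1.92 for cholesterol synthesis, -1.67 for lipogenesis and 1.05 for mitochondrially encoded genes.

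Cholesterol synthesis had the largest share of falling genes of the pathway lists. Of 25 genes of cholesterol synthesis and uptake, 21 fell and none rose, with a median log2 fold change of -1.92. The list covers the route from acetyl-CoA to cholesterol and its SREBP regulators, with genes of cholesterol uptake. Fdps, which makes farnesyl diphosphate, stood at 166, 154, 70.7 and 258 CPM at 4 h and at 11.5, 13.9, 10.7 and 8.27 CPM at 24 h. The groups were far apart, and the log2 fold change was -3.87 ± 0.63 (adjusted p = 0.000127). Idi1, the isomerase that precedes Fdps, went from 27.0, 23.2, 13.5 and 43.7 CPM to 1.74, 3.63, 3.59 and 2.43 CPM (-3.24 ± 0.71, adjusted p = 0.00248). In both genes KO CD 4 h replicate 3 was the lowest and replicate 4 the highest of the 4 h group, while the 24 h values were close together.

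Later steps of the pathway fell too, by unequal amounts. Nsdhl, a sterol dehydrogenase, had 43.0, 39.6, 22.6 and 59.2 CPM at 4 h and 6.87, 4.57, 5.36 and 3.24 CPM at 24 h (-3.03 ± 0.50, adjusted p = 0.000142). Cyp51, the lanosterol demethylase, fell from 81.3 ± 33.6 to 10.4 ± 2.59 CPM (SD, n = 4 each). Sc5d, which acts near the end of the route, had the smallest p of these genes and fell by 1.67 ± 0.24 on the log2 scale (adjusted p = 4.04e-05). Sqle, the squalene epoxidase, fell by 3.12 ± 0.74. Insig1, an SREBP target that holds SREBP in the endoplasmic reticulum, fell by 2.63 ± 0.43, and Srebf2, the gene of SREBP-2, by 0.88 ± 0.29 (adjusted p = 0.0307, but 0.0597 to 0.114 without KO CD 24 h replicate 3 or 4, KO CD 4 h replicate 1 or 4 or the libraries near the other diet). Fdft1, the squalene synthase, averaged 69.4 ± 16.3 and 49.7 ± 6.78 CPM and did not pass. The count of genes that fell was 19 without the libraries near the other diet, 22 without those with muscle transcripts and 13 without both, which leaves 1 KO CD 24 h library whose spread is taken from the other groups.

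Most promoters examined for these genes share a feature that played no part in choosing them. RefSeq promoter windows (250 bases before to 50 after the start site, GRCm38.p6) were matched for 14 of the 21 genes that fell, and 12 of the 14 (85.7%) hold the CCAAT box, the letters CCAAT on either strand, the element bound by NF-Y. The same letters occur in 38.4% of the 10826 promoters of tested genes, in 41.0% of all genes that fell and in 40.3% of those that rose. The motif was added after the data were seen, and 2211 of these genes have several windows in the table, of which 1 was used. The sterol element TCACNCCAC was found in 1 of the 14 windows (7.14%) and in 1.13% of all. The windows of Idi1 (chr13:8885356-8885655, plus strand), Nsdhl (chrX:72918271-72918570, plus strand) and Mvk (chr5:114444019-114444318, plus strand), the mevalonate kinase, are shown 5′ to 3′ with each CCAAT box in capitals, because all 3 genes fell and hold 2, 4 and 5 matches, none of which overlaps another motif searched.
Idi1: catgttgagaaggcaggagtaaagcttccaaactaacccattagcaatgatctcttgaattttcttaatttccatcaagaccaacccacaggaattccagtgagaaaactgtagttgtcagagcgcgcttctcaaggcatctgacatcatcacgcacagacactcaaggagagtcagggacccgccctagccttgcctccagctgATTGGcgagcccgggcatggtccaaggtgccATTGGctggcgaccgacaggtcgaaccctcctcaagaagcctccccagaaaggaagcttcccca
Nsdhl: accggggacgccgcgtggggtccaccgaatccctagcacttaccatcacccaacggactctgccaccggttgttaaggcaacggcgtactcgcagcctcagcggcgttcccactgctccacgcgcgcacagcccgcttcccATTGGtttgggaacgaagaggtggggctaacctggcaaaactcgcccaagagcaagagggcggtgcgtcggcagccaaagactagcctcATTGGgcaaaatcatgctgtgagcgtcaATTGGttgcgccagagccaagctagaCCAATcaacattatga
Mvk: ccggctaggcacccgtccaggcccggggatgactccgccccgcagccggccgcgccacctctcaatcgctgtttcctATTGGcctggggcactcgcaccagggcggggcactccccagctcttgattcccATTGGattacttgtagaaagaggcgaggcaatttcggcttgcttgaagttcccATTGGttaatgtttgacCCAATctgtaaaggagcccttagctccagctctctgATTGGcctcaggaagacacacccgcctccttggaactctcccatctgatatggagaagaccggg
In all 3 windows most matches lie on the reverse strand, read as ATTGG, and the farthest lies 173 bases before the start site, in Mvk. Mvk fell from 15.5 ± 4.96 to 7.31 ± 1.87 CPM (adjusted p = 0.039), but not without the libraries with muscle transcripts (adjusted p = 0.196), nor without any 1 of 6 of the 8 libraries (all but KO CD 24 h replicate 4 and KO CD 4 h replicate 3; 0.0656 to 0.116).

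Fatty acid synthesis fell with it. Of 25 genes of de novo lipogenesis and its regulators, 20 fell and none rose (median -1.67). Fasn, the fatty acid synthase, was at 824, 418, 270 and 2190 CPM in the 4 h livers and at 60.1, 42.2, 30.0 and 28.7 CPM in the 24 h livers. The 4 h values span a wide range, led by replicate 4, but the lowest of them is still above every 24 h value, and the log2 fold change was -4.52 ± 0.59 (adjusted p = 2.14e-05). Acly, which supplies cytosolic acetyl-CoA, fell by 2.76 ± 0.40. Acaca, the acetyl-CoA carboxylase, fell with a log2 fold change of -2.17 ± 0.29. Scd1, the stearoyl-CoA desaturase, had 19400, 13900, 16400 and 17200 CPM at 4 h and 2820, 2660, 1890 and 130 CPM at 24 h. The last of these values, in the library labelled replicate 4, lay far below the other 3, and the log2 fold change of Scd1 was -3.16 ± 0.97 (adjusted p = 0.0239, and 0.0643 and 0.0647 without KO CD 24 h replicate 3 or 4). Pnpla3, a lipase of lipid droplets induced by feeding, stood at 9.73, 3.4, 2.81 and 56.2 CPM at 4 h and between 0.373 and 1.41 CPM at 24 h. Srebf1, the gene of SREBP-1, fell from 320 ± 119 to 84.6 ± 30.5 CPM. Mlxipl, the gene of the sugar-sensing factor ChREBP, averaged 399 ± 32.7 and 260 ± 100 CPM and did not pass (adjusted p = 0.0952), although it did without the libraries near the other diet (adjusted p = 0.0223) or KO CD 24 h replicate 4 alone (0.0242). The count of lipogenic genes that fell was 16 to 21 under all alternatives tried.

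**Figure D2:**
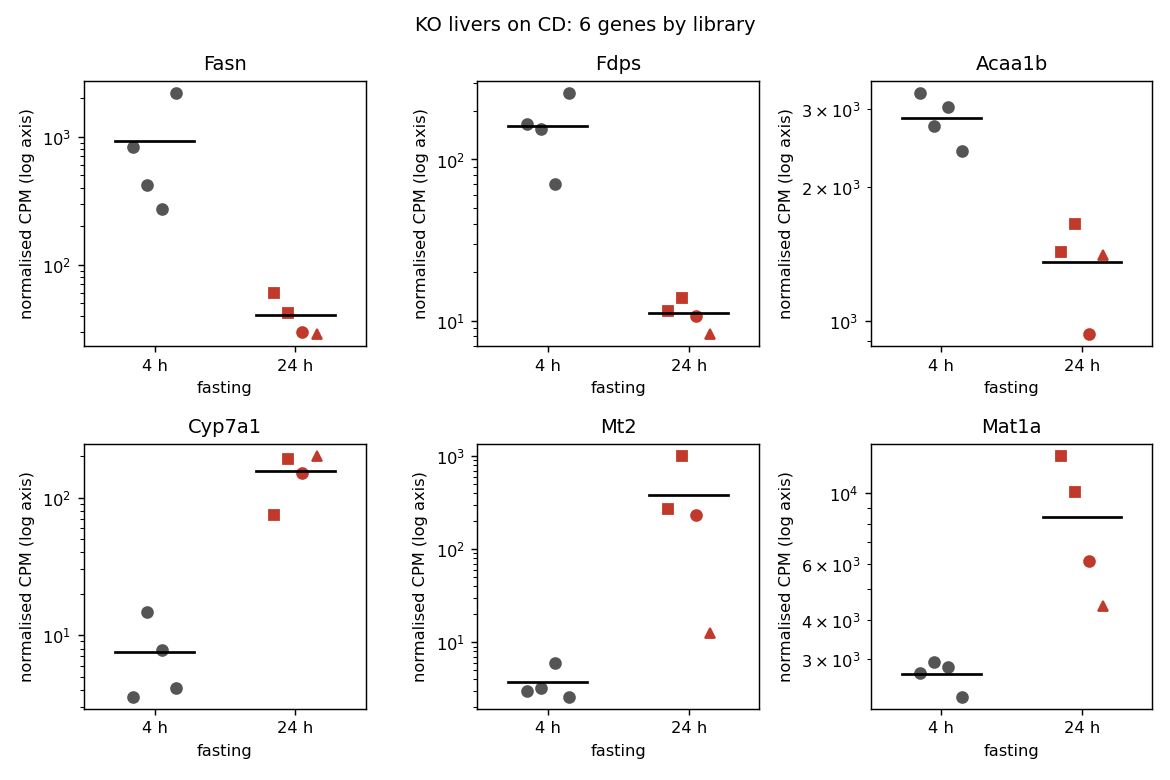
Normalised CPM (log axis) of Fasn, Fdps, Acaa1b, Cyp7a1, Mt2 and Mat1a in the 4 KO livers on CD fasted for 4 h and the 4 fasted for 24 h. Each point is 1 library, squares mark the libraries with muscle transcripts, the triangle the library labelled KO CD 24 h replicate 4, and bars are group means: Fasn fell from 926 to 40.3 CPM and Mt2 rose from 3.71 to 381 CPM.

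Genes of glucose use fell as well, fewer of them. Of 32 genes of glycolysis, the pentose phosphate route and glycogen, 16 fell and none rose (median -0.66). Pklr, the liver pyruvate kinase, was at 240, 237, 197 and 359 CPM at 4 h and at 31.9, 27.2, 23.0 and 72.9 CPM at 24 h, a log2 fold change of -2.73 ± 0.49 (adjusted p = 0.000405). The groups did not overlap. Pgd, of the pentose phosphate route, fell by 1.55 ± 0.21. Pygl, the phosphorylase that breaks glycogen down, went from 514 ± 42.5 to 189 ± 50.5 CPM. Ppp1r3g, a glycogen-targeting subunit of protein phosphatase 1, had 22.0, 8.29, 1.99 and 9.21 CPM at 4 h and 0.846, 0.403, 0.63 and 0 CPM at 24 h (adjusted p = 0.00109). Pfkfb3, which makes the activator of phosphofructokinase, fell by 2.24 ± 0.39, with overlapping groups through the low KO CD 4 h replicate 3, while WT livers gave 0.31 ± 0.39. This difference between the genotypes passed (adjusted p = 0.0197, but 0.0578 without KO CD 24 h replicate 3, 0.0751 without replicate 2 at 4 h, 0.0548 without replicate 3 of WT at 4 h and 0.152 with only the libraries of KO and WT on CD in the fit). At 4 h Pfkfb3 was higher in KO than in WT livers (2.15 ± 0.39, adjusted p = 0.00119), and at 24 h the difference of -0.40 ± 0.39 did not pass (adjusted p = 0.654).

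The genes of glucose production gave no common direction. Of 30 genes of gluconeogenesis and pyruvate control, 3 rose and 2 fell (median -0.19). Pck1, the gatekeeper of gluconeogenesis, had 3840, 5280, 2260 and 2500 CPM at 4 h and 4730, 2130, 1850 and 614 CPM at 24 h. The groups overlapped and the gene did not pass (-0.57 ± 0.39, adjusted p = 0.306), and the lowest value was that of the library labelled replicate 4. G6pc, the glucose-6-phosphatase, averaged 532 ± 208 and 264 ± 136 CPM and did not pass (adjusted p = 0.1), but was called lower without KO CD 24 h replicate 1 (-1.31, adjusted p = 0.047). Slc2a2, the glucose transporter of the hepatocyte, fell by 1.05 ± 0.29 (adjusted p = 0.0142, and 0.0533 without KO CD 24 h replicate 3). Without the libraries with muscle transcripts 2 genes of the list rose and 10 fell, and Pck1 was then called lower (-1.50, adjusted p = 0.00662), as it was without KO CD 24 h replicate 1 alone (-1.18, adjusted p = 0.0268). Igfbp1, a secreted target of FoxO1, stood at 96.0, 103, 55.9 and 155 CPM at 4 h and at 139, 99.7, 48.6 and 6.47 CPM at 24 h. Its change of -0.48 ± 0.67 differed from the rise of 3.60 ± 0.74 in WT livers (adjusted p of the difference = 0.049, and 0.0537 to 0.127 without any 1 of 11 of the 16 libraries or with only those 16 in the fit). WT livers had 19.1 to 62.3 CPM at 4 h and 202 to 859 CPM at 24 h, where Igfbp1 was lower in KO livers (-2.70 ± 0.71, adjusted p = 0.0401).

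The genes that burn fatty acids changed little as a group in KO livers, where many of them already stood above their WT level at 4 h of fasting. The lists were read together, PPARα targets (32 genes), mitochondrial oxidation (23) and peroxisomal oxidation (25), which hold 75 different genes. In KO livers 12 of the 75 rose and 4 fell, and in WT livers 53 rose and 1 fell. Of all 14438 genes 1283 rose and 1387 fell in WT livers. The change in KO was lower than in WT for 23 of the 75 (30.7%) and higher for none, against 71 lower (0.492%) and 17 higher (0.118%) of all 14438 genes. By list, 13 PPARα targets, 6 mitochondrial and 8 peroxisomal genes passed this test of the difference. The median change of the PPARα targets was 0.32 in KO livers and 1.63 in WT livers.

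These changes start from unequal levels, which were tested at each fasting time after the data were seen. At 4 h 32 of the 75 genes were higher in KO than in WT livers on CD and none lower (52 and 0 at an unadjusted p under 0.05, edgeR), with a median log2 difference of 0.64. Of all genes 264 (1.83%) differed, 199 higher (1.38%) and 65 lower (0.45%). At 24 h 2 of the 75 were higher and none lower by the edgeR test (median -0.19), while 299 of all genes (2.07%) differed, 136 higher (0.942%) and 163 lower (1.13%). At an unadjusted p under 0.05 these 24 h counts were 4 and 16, and DESeq2 called 2 higher and 1 lower. The 24 h comparison turns on the libraries used. Without those that hold muscle transcripts 2 of the 75 were higher and 36 lower in KO at 24 h (median -0.68), without those near the other diet 1 and 0, without both 2 and 16, and without KO CD 24 h replicate 2 alone 4 were lower. Without WT CD 24 h replicate 1 alone 2 were higher and 2 lower in KO at 24 h (median -0.32). At 4 h the count of higher genes was 24 to 37 under all alternatives tried.

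Acaa1b, a thiolase of peroxisomal oxidation, stood at 3250, 2740, 3020 and 2410 CPM in the 4 h livers and at 1430, 1650, 935 and 1410 CPM in the 24 h livers. All 24 h values lay below all 4 h values, and the log2 fold change was -1.07 ± 0.29 (adjusted p = 0.0101). WT livers had 1000, 912, 518 and 640 CPM at 4 h and 685, 2640, 2830 and 2770 CPM at 24 h, a rise of 1.54 ± 0.29, and the difference of -2.61 ± 0.41 between the changes passed (adjusted p = 0.0018). The 685 CPM was that of WT CD 24 h replicate 1, which holds muscle transcripts and lay within the WT values at 4 h. In level, Acaa1b was higher in KO than in WT livers at 4 h (1.89 ± 0.29, adjusted p = 0.00016) and at 24 h differed by -0.72 ± 0.28 (adjusted p = 0.195, and 0.00307 without the libraries with muscle transcripts). Its count is uncertain where reads match its near-identical paralog. Ehhadh, the bifunctional enzyme that acts before the thiolase, had 1120, 1050, 1460 and 948 CPM at 4 h and 1320, 1980, 683 and 940 CPM at 24 h. Its groups overlapped (0.11 ± 0.34, adjusted p = 0.857), while WT livers went from 304, 237, 145 and 206 CPM to 1370, 3770, 2370 and 2570 CPM, a rise of 3.50 ± 0.38 (adjusted p of the difference = 0.00104). Ehhadh was higher in KO livers at 4 h (2.36 ± 0.36, adjusted p = 0.000146), and the 24 h difference of -1.03 ± 0.35 did not pass (adjusted p = 0.116, and 0.00375 without the libraries with muscle transcripts). Vnn1, a pantetheinase and PPARα target, gave -0.15 ± 0.34 in KO and 2.84 ± 0.37 in WT (adjusted p of the difference = 0.00328, and 0.058 with only the libraries of KO and WT on CD in the fit). Its 4 h level was 134 to 220 CPM in KO and 11.9 to 26.7 CPM in WT livers (3.21 ± 0.37, adjusted p = 1.99e-06), and its 24 h levels overlapped, at 123 to 246 and 32.3 to 219 CPM (0.23 ± 0.34, adjusted p = 0.777).

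Other targets rose in KO livers by less than in WT livers. Cyp4a14, a fatty acid omega-hydroxylase, went from 2710, 2730, 3920 and 1630 CPM to 10700, 10500, 5530 and 4810 CPM, a log2 fold change of 1.52 ± 0.43 (adjusted p = 0.0144, and 0.0563 without KO CD 4 h replicate 4). WT livers went from 61.9, 19.4, 7.06 and 31.7 CPM to 4630, 10500, 7910 and 6450 CPM, a change of 7.94 ± 0.57, and the difference between the changes had an adjusted p of 1.06e-06. At 4 h Cyp4a14 was 6.52 ± 0.53 (log2) higher in KO than in WT livers (adjusted p = 2.78e-09), while the 24 h values overlapped and differed by 0.10 ± 0.42 (adjusted p = 0.935). The count of Cyp4a14 is uncertain where reads match its near-identical family members. Slc22a5, the carnitine transporter, rose by 0.77 ± 0.18 in KO and by 1.93 ± 0.19 in WT (adjusted p of the difference = 0.0242). It stood at 22.7 to 43.1 CPM in KO and 17.0 to 22.2 CPM in WT livers at 4 h (0.87 ± 0.18, adjusted p = 0.00597) and at 49.1 to 80.0 and 65.9 to 87.3 CPM at 24 h (-0.29 ± 0.18, adjusted p = 0.449, and 0.038 without the libraries with muscle transcripts). Cidec, a lipid droplet protein, rose by 1.86 ± 0.46 and 4.59 ± 0.52 (adjusted p of the difference = 0.0496), and its level did not differ past the threshold at 4 h (1.18 ± 0.49, adjusted p = 0.38) or at 24 h (-1.55 ± 0.45, adjusted p = 0.0632, and 0.0137 without the libraries with muscle transcripts). The calls of a difference in change for Slc22a5 and Cidec were lost without 1 library or another (adjusted p up to 0.0779 and 0.177), without those near the other diet (0.0502 and 0.121) and with only the libraries of KO and WT on CD (0.0806 and 0.243). The rise of Cidec in KO livers had an adjusted p of 0.0576 without KO CD 24 h replicate 2. Acadm, the medium-chain acyl-CoA dehydrogenase, rose from 467 ± 63.2 to 711 ± 114 CPM (0.61, adjusted p = 0.00596, but 0.39 and 0.0551 without the libraries with muscle transcripts), and the difference of its change from that in WT did not pass (adjusted p = 0.0731). At 4 h Acadm was higher in KO than in WT livers (0.79 ± 0.15, adjusted p = 0.00198), and at 24 h it differed by -0.03 ± 0.15 (adjusted p = 0.947). Cpt1a, the gate of mitochondrial fatty acid entry, averaged 513 ± 92.0 and 555 ± 192 CPM and did not pass in KO livers (0.11, and -0.40 without the libraries with muscle transcripts). In WT livers it rose by 1.14 ± 0.25, but the difference did not pass (adjusted p = 0.2). Acot3, a peroxisomal acyl-CoA thioesterase, rose by 2.24 ± 0.51 in KO livers.

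These values depend on which 24 h libraries are read. Relative to the 4 h mean, the median PPARα target lay at 0.31 and 0.74 (log2) in KO CD 24 h replicates 1 and 2, which hold muscle transcripts, and at -0.22 in both replicates 3 and 4. Without the 4 libraries of the study that hold muscle transcripts, 1 of the 32 targets rose and 7 fell in KO livers (median -0.40), and the change was lower than in WT for 22 targets, 17 mitochondrial and 14 peroxisomal genes. Without the libraries near the other diet these counts were 12, 5 and 4, and with only the libraries of KO and WT on CD in the fit they were 6, 3 and 3. The peroxisomal count was also 4 without replicate 3 or 4 of KO at 24 h, replicate 1 of KO at 4 h, or replicate 3 or 4 of WT at 4 h. Acaa1b fell without either set of libraries (-1.29 and -1.08), while Cyp4a14, Slc22a5 and Cidec no longer passed without the libraries with muscle transcripts (adjusted p = 0.144, 0.0581 and 0.0769). Ppara, the receptor gene itself, averaged 183 ± 32.1 and 140 ± 26.5 CPM and did not pass. Fgf21, the fasting hormone made by the liver, rose from 5.47 ± 3.23 to 14.4 ± 4.41 CPM (adjusted p = 0.0233, 0.144 without the libraries with muscle transcripts, and 0.0518 to 0.0844 without KO CD 24 h replicate 2 or KO CD 4 h replicate 3 or 4). Of 11 genes of ketone body metabolism 1 rose and 4 fell, among them Aacs, which feeds acetoacetate into lipid synthesis (-3.42 ± 0.72).

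**Figure D3:**
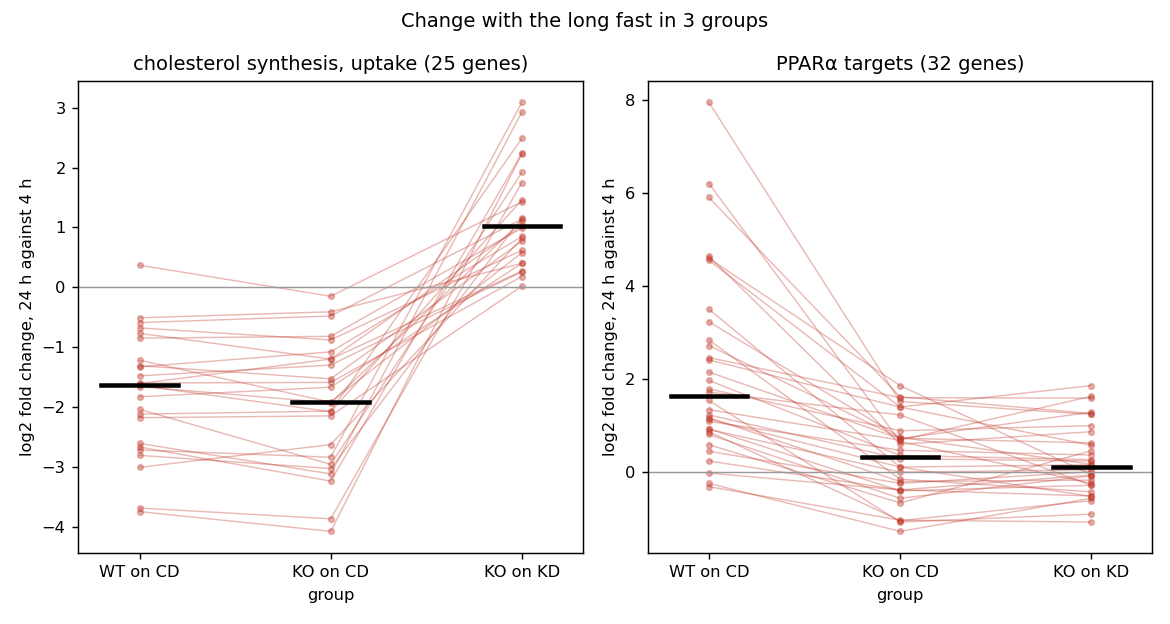
Log2 fold change from 4 to 24 h of fasting for 25 genes of cholesterol synthesis and uptake (left) and 32 PPARα targets (right) in WT livers on CD, KO livers on CD and KO livers on KD. Each line is 1 gene and black bars are medians: cholesterol genes had a median of -1.92 in KO on CD and 1.03 in KO on KD, and PPARα targets 0.32 in KO and 1.63 in WT on CD. Changes are shown, not levels, and the 4 h levels differ between the groups.

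Within KO livers the change with the long fast differed between CD and KD in most genes of lipid synthesis, and many of these genes were already lower on KD at 4 h. On CD 41 of 50 genes of cholesterol synthesis or lipogenesis fell. The change on CD was lower than on KD for 31 of the 50, 20 of cholesterol synthesis and 11 of lipogenesis. These counts were 23 and 13 without the libraries with muscle transcripts, 19 and 10 without those close to the other diet, and 0 and 0 without both, where the median difference of the cholesterol genes was -2.57 against -2.30 over all libraries. Of all tested genes 201 (1.39%) differed in this way, 114 lower (0.79%) and 87 higher (0.603%), 42 of them muscle genes. On KD 10 cholesterol genes rose with fasting and none fell (median 1.03), while of all 14438 genes 659 rose and 696 fell. In level, 35 of the 50 genes were lower on KD than on CD at 4 h and none higher (42 and 0 at an unadjusted p under 0.05, edgeR; median log2 difference -1.58), while 1042 of all genes (7.22%) differed, 673 lower (4.66%) and 369 higher (2.56%). At 24 h 1 of the 50 was higher on KD and none lower (median 0.55), and over all genes 1 differed (0.00693%), by the edgeR test. At an unadjusted p under 0.05 23 of the 50 were higher on KD at 24 h and none lower, and DESeq2 called 12 higher. With both libraries near the other diet left out, 9 were higher and 1 lower, and 11 and 1 without KO KD 24 h replicate 4 alone. The cholesterol genes lower on KD at 4 h numbered 18, but 10 without KO CD 4 h replicate 4 and 12 without the libraries with muscle transcripts. Fdps gave -3.87 ± 0.63 on CD and 1.75 ± 0.57 on KD, a difference of -5.62 ± 0.84 (adjusted p = 0.00229). On KD it stood at 18.9, 18.7, 24.6 and 17.1 CPM at 4 h, below each CD value of that time, and at 29.6, 126, 101 and 9.43 CPM at 24 h. Its level was lower on KD at 4 h (-3.03 ± 0.60, adjusted p = 0.00221), and the 24 h difference of 2.59 ± 0.60 did not pass (adjusted p = 0.0842, and 0.0322 without the libraries near the other diet). Fasn gave -4.52 ± 0.59 and 0.06 ± 0.51 (adjusted p of the difference = 0.00229). It was at 50.7 to 91.9 CPM at 4 h and 39.0 to 91.3 CPM at 24 h on KD, so the diets differed at 4 h (-3.85 ± 0.57, adjusted p = 0.000179) and not past the threshold at 24 h (0.73 ± 0.52, adjusted p = 0.579). In WT livers on CD 38 of the 50 genes fell after the long fast, against 1387 of all 14438 genes. None of the 50 passed the test of a difference between the genotypes.

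The genes of bile acid synthesis and transport gave no common direction (median -0.23), although Cyp7a1 rose. Cyp7a1, the enzyme that limits how fast cholesterol is turned into bile acids, stood at 3.57, 14.7, 7.81 and 4.11 CPM at 4 h and at 74.6, 192, 151 and 201 CPM at 24 h. Every 24 h value exceeded every 4 h value, and the log2 fold change was 4.36 ± 0.65 (adjusted p = 5.25e-05). On KD it stood at 195, 70.1, 301 and 91.2 CPM at 4 h and at 115, 188, 308 and 53.7 CPM at 24 h, a change of 0.02 ± 0.56. The KD values at 4 h overlapped the CD values at 24 h. The difference between the changes passed (adjusted p = 0.0074). In level Cyp7a1 was higher on KD at 4 h (4.44 ± 0.66, adjusted p = 0.000179) and differed by 0.11 ± 0.56 at 24 h (adjusted p = 0.958). The difference of the change on CD from the 2.71 ± 0.60 of WT livers did not pass (adjusted p = 0.453). Nr0b2, the gene of the repressor SHP, went from 85.3 ± 25.9 to 33.8 ± 11.1 CPM (adjusted p = 0.0205, and 0.0578 to 0.0741 without KO CD 24 h replicate 3 or 4 or KO CD 4 h replicate 2, and 0.0758 without the libraries near the other diet). Abcb11, the bile salt export pump, fell from 601 ± 28.3 to 245 ± 38.3 CPM, and Slco1a4, an organic anion carrier, rose by 2.45 ± 0.45. Of 19 genes of bile acid synthesis and transport 3 rose and 5 fell.

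Of genes outside the muscle set whose groups did not overlap and averaged 5 CPM or more at either time, the largest rise was that of Mt2, a metallothionein that binds zinc and responds to glucocorticoids. It had 3.01, 3.26, 5.98 and 2.6 CPM at 4 h and 268, 1010, 232 and 12.5 CPM at 24 h, with a log2 fold change of 6.67 ± 1.25 (adjusted p = 0.000607). Its neighbour Mt1 followed, from 10.7 ± 6.14 to 593 ± 606 CPM. In both genes the library labelled replicate 4 was the lowest at 24 h. The rise of Mt2 in WT livers, 6.39 ± 1.24, did not differ past the threshold (adjusted p = 0.965). Sult1e1, an oestrogen sulfotransferase, had 2 to 5 counts in each 4 h library and 108, 72, 156 and 7 counts in the 24 h libraries (adjusted p = 0.00182). Of the 23 genes of the glucocorticoid list 4 rose and 4 fell. Lpin1, a phosphatidate phosphatase and coactivator, was among those that fell, from 348, 454, 38.8 and 140 CPM to 46.1, 68.7, 14.8 and 21.0 CPM. Its groups overlapped through the low KO CD 4 h replicate 3 (-2.70 ± 0.74, adjusted p = 0.0127, and 0.0503 to 0.0533 without the libraries near the other diet, KO CD 24 h replicate 3 or KO CD 4 h replicate 2).

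Enzymes of methionine use rose in part. Of 27 genes of methionine, one-carbon and methyl use 9 rose and 3 fell (median 0.09). Mat1a, which makes S-adenosylmethionine in the liver, stood at 2720, 2940, 2850 and 2290 CPM at 4 h and at 13100, 10100, 6110 and 4420 CPM at 24 h, a log2 fold change of 1.65 ± 0.27 (adjusted p = 0.000155). Bhmt, which remethylates homocysteine with betaine, rose by 1.69 ± 0.32, Ahcy, the S-adenosylhomocysteine hydrolase, by 1.16 ± 0.17 and Cth, which makes cysteine, by 1.52 ± 0.24. Nnmt, which methylates nicotinamide, rose from 34.9 ± 8.01 to 152 ± 82.6 CPM (2.12, adjusted p = 0.0113, but 1.32 and 0.0964 without the libraries with muscle transcripts). In Mat1a, Bhmt, Cth and Nnmt the library labelled replicate 4 had the lowest 24 h value, and without the libraries with muscle transcripts 9 genes of the list still rose while 7 fell. Of 45 genes of amino acid breakdown and the urea cycle 8 rose and 4 fell. They include Asl, the argininosuccinate lyase (1.39 ± 0.28), and Arg1, the arginase (1.00 ± 0.23). Without the libraries with muscle transcripts 5 of these 45 rose and 12 fell, and without those near the other diet 11 rose and 2 fell.

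**Figure D4:**
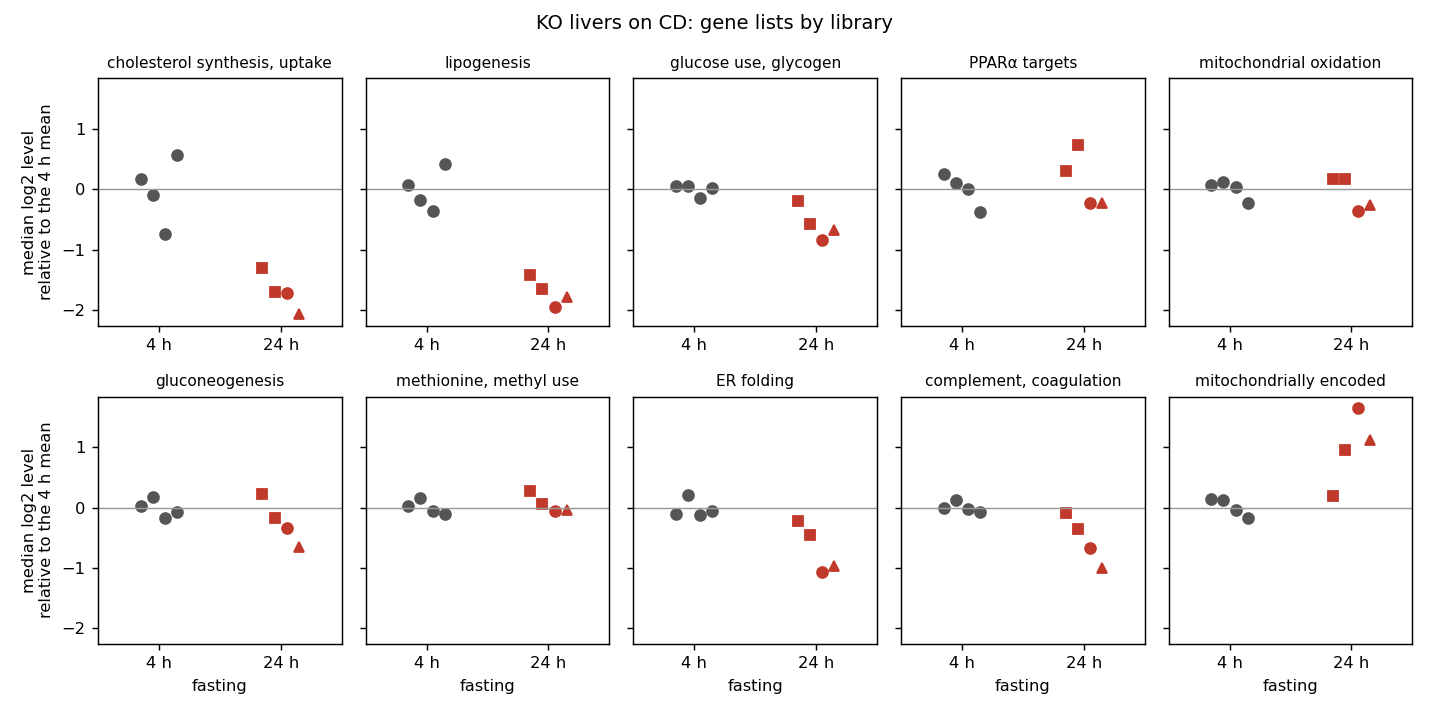
Median log2 level of the members of 10 gene lists relative to the mean of the 4 h group (vertical axis) in each of the 8 KO libraries on CD (points; squares and the triangle as in the plot of single genes). Cholesterol synthesis and lipogenesis lie at -1.31 or lower in all 4 livers fasted for 24 h, whereas PPARα targets lie above 0 in replicates 1 and 2 and at -0.22 in replicates 3 and 4.

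Genes of drug and steroid metabolism changed in both directions. Of 31 genes of cytochrome P450 families 1 to 3 and their regulators 8 rose and 5 fell, and of 35 conjugation genes 8 rose and 6 fell. Cyp3a25 had the smallest p of all genes that rose, with 466, 328, 602 and 329 CPM at 4 h and 1550, 1370, 1890 and 1340 CPM at 24 h (1.83 ± 0.20, adjusted p = 1.62e-06). Cyp2c39 rose from 1.10 ± 0.416 to 6.97 ± 1.14 CPM, Cyp3a59 from 9.86 ± 4.62 to 55.0 ± 19.1 CPM and Fmo2, a flavin monooxygenase, from 8.20 ± 1.12 to 37.7 ± 4.24 CPM. Ugt2b38, a glucuronosyltransferase, had 3.05, 16.1, 4.35 and 3.3 CPM at 4 h and 0.373 to 0.899 CPM at 24 h. Counts of the Cyp2c, Cyp3a and Ugt2b families are uncertain where copies are near-identical. Nr1i3, the gene of the nuclear receptor CAR, rose from 87.2 ± 27.6 to 236 ± 84.7 CPM. Cyp2c70, which makes the muricholic acids of the mouse, fell by 2.13 ± 0.29, against a change of -3.88 ± 0.32 in WT livers (adjusted p of the difference = 0.0341, up to 0.0796 without 1 library, and 0.0591 without those near the other diet).

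Male-biased liver genes fell in part. Of 20 such genes 10 fell and none rose (median -1.25), while of 11 female-biased genes 3 rose and none fell (median 0.99). All animals were male. Hsd3b5, a steroid reductase found in male liver, stood at 224, 352, 224 and 240 CPM at 4 h and at 23.1, 14.5, 34.7 and 62.0 CPM at 24 h (-2.95 ± 0.66, adjusted p = 0.00297). Nudt7, a peroxisomal hydrolase of coenzyme A, fell by 1.79 ± 0.30 and Selenbp2 fell by 2.47 ± 0.66. Cyp17a1, which is female-biased in mouse liver, had 48.3, 30.4, 14.4 and 17.4 CPM at 4 h and 275, 186, 115 and 13.4 CPM at 24 h. Its groups overlapped through the library labelled replicate 4, and the adjusted p was 0.0134, but 0.211 without the libraries with muscle transcripts. Of 19 genes of the growth hormone, STAT5 and IGF axis 3 fell and none rose.

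Genes of cell division fell from low levels. Of 28 genes of the cell cycle and DNA replication 11 fell and none rose (median -0.69). Top2a, the topoisomerase of dividing cells, had 1.83, 0.815, 1.95 and 1.65 CPM at 4 h and 0.317, 0.336, 0.378 and 0.498 CPM at 24 h (-2.02 ± 0.54, adjusted p = 0.011). Ccnd1, the cyclin of the G1 phase, fell from 18.6 ± 2.58 to 5.76 ± 2.26 CPM and Mcm5, of the replicative helicase, from 1.60 ± 0.141 to 0.517 ± 0.23 CPM. In WT livers Top2a gave 0.31 ± 0.50, and the difference did not pass (adjusted p = 0.17). All 8 promoter windows matched for the genes that fell hold a CCAAT box (38.4% of all windows). That of Top2a (chr11:99024140-99024439, minus strand) is shown 5′ to 3′ with the boxes in capitals, because it holds 6 of them.
Top2a: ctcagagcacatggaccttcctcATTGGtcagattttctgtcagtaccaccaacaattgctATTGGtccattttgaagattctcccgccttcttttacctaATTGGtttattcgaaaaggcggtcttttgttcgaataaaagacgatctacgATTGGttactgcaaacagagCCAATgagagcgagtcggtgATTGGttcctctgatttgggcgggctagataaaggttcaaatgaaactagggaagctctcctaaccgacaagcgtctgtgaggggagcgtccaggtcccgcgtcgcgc
Of the 6 matches 5 lie on the reverse strand and 1 on the forward strand. Without KO CD 24 h replicate 3, 7 genes of the list fell. In WT livers on CD 2 genes of the list rose and 3 fell (median -0.03). In KO livers on KD 1 rose and 6 fell (median -0.32).

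Some markers of macrophages were lower after the long fast, by amounts that differed between the libraries. Of 12 markers of Kupffer cells and macrophages 5 fell and none rose. The summed level of the 12 was 402 to 522 CPM at 4 h and 190, 249, 399 and 322 CPM at 24 h. Relative to the 4 h mean, the median marker lay at -1.33 and -0.78 (log2) in KO CD 24 h replicates 1 and 2, which hold muscle transcripts. It lay at -0.07 and -0.55 in replicates 3 and 4. Csf1r, the receptor for macrophage growth factor, stood at 37.3, 46.5, 51.0 and 47.2 CPM at 4 h and at 19.4, 19.0, 20.7 and 19.2 CPM at 24 h (-1.22 ± 0.28, adjusted p = 0.00323). Clec4f, a lectin of Kupffer cells, fell from 97.9 ± 9.98 to 52.6 ± 12.6 CPM, and Adgre1, the surface marker F4/80, from 15.3 ± 1.87 to 6.72 ± 2.59 CPM. C1qc and Cd68 were the other members that fell, each with a call lost without any 1 of 6 of the 8 libraries and without those near the other diet (adjusted p = 0.0703 and 0.0813), and C1qc also without those with muscle transcripts (0.0812). The adjusted p of Adgre1, 0.0214, was 0.0678 without KO CD 24 h replicate 2, 0.103 without the libraries with muscle transcripts and 0.0509 without those near the other diet. In WT livers none of the 12 passed, and for none of them did the difference between the genotypes pass. The median log2 change of the 12 was -0.60 in KO livers on CD, 0.45 in WT livers on CD and -0.59 in KO livers on KD. In whole liver, fewer cells of a type and less RNA per cell cannot be told apart. The count was 3 without the libraries with muscle transcripts, 2 without those near the other diet and 0 without both. It was 2 without KO CD 24 h replicate 2, 3 without replicate 4 at 24 h or replicate 2 or 3 at 4 h, and 3 when scaled by total counts. Of the markers of endothelium 3 of 10 fell and of stellate cells 3 of 10, with 1 that rose, Des, which is also a muscle gene. None of the tested markers of T and NK cells, B and plasma cells, neutrophils and monocytes, cholangiocytes or pancreas passed. Hepatocyte markers summed to 73600 to 82200 CPM at 4 h and to 83500, 71900, 58500 and 39800 CPM at 24 h, with 1 of 8 called lower. Of 14 pericentral markers 1 rose and 2 fell, and of 10 periportal markers 2 fell. Of 4 adipocyte markers tested Car3 fell, which hepatocytes also express, and of 5 erythroid markers Alas2 fell.

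Transcripts of the mitochondrial genome took a larger share after the long fast. Of 12 mitochondrially encoded genes 8 rose and none fell (median 1.05), while of 30 nuclear genes of oxidative phosphorylation 1 fell and none rose (median 0.06). The 12 genes held 5.22% to 5.63% of all counts at 4 h and 6.46%, 9.36%, 15.5% and 13.2% at 24 h. mt-Nd1, a subunit of complex I, stood at 6200, 6130, 5490 and 4590 CPM at 4 h and at 9320, 14800, 19900 and 12900 CPM at 24 h (1.35 ± 0.27, adjusted p = 0.00137). The change in WT livers, 0.59 ± 0.27, did not pass, nor did the difference (adjusted p = 0.47). The part of RNA quality in this was not tested. The count of genes that rose was 4 without KO CD 24 h replicate 3, 5 without replicate 4 and 4 or 5 without KO CD 4 h replicate 1, 3 or 4.

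Several genes of protein secretion fell. Of 24 genes of protein folding in the endoplasmic reticulum 10 fell and none rose (median -0.63). Pdia6, a disulfide isomerase, had 258, 341, 248 and 260 CPM at 4 h and 146, 152, 67.3 and 69.6 CPM at 24 h. Hyou1, a chaperone, fell by 1.34 ± 0.37 (adjusted p = 0.0124, and 0.058 and 0.0533 without KO CD 24 h replicate 3 or 4, the second also without the libraries near the other diet, 0.0536). In both genes replicates 3 and 4 were lower than replicates 1 and 2, and the count for the list was 18 without the libraries with muscle transcripts, 5 without those near the other diet, 6 without KO CD 24 h replicate 3 and 4 without replicate 4. Of 36 complement and coagulation genes 11 fell and none rose, led by C8a, a part of the membrane attack complex (-1.51 ± 0.25). That count was 24 without the libraries with muscle transcripts and 3 without those near the other diet. It was 19, 6 and 4 without KO CD 24 h replicate 1, 3 or 4, and 6 and 7 without KO CD 4 h replicate 2 or 3. Hspa1b, an inducible heat shock protein whose reads are shared with a near-identical copy, stood at 13.4, 13.7, 7.41 and 25.9 CPM at 4 h and at 1.8, 1.41, 1.26 and 1.12 CPM at 24 h (-3.42 ± 0.55, adjusted p = 0.000128). WT livers gave 0.52 ± 0.48, and the difference passed (adjusted p = 0.00641). Its level in WT livers was 6.26 to 17.9 CPM at 4 h and 3.74 to 21.5 CPM at 24 h, and KO livers were lower at 24 h (-3.37 ± 0.55, adjusted p = 0.00099).

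The remaining lists were mixed. Of 33 genes of autophagy and lysosomes 4 rose and 9 fell, of 30 lipid droplet genes 4 rose and 6 fell, and of 21 genes of fatty acid uptake and activation 2 rose and 5 fell. The genes of uptake include Fabp5, a fatty acid binding protein, which stood at 32.1, 62.3, 22.1 and 66.4 CPM at 4 h and between 2.8 and 3.47 CPM at 24 h (-3.89 ± 0.51, adjusted p = 2.19e-05). Of 30 secreted fasting factors 5 rose and 1 fell, of 28 insulin and FoxO genes 1 rose and 3 fell, and of 31 ATF4 genes 3 rose and 5 fell. Of 20 heat shock genes 4 fell, of 29 acute phase genes 4 rose and 4 fell, of 24 apolipoprotein genes 1 rose and 5 fell, and of 30 interferon and antigen presentation genes 2 fell, Cd74 and H2-Ab1, both of MHC class II. Without the libraries with muscle transcripts neither passed (adjusted p = 0.0696 and 0.137), and H2-Ab1 did not pass without those near the other diet (0.0578) or without KO CD 24 h replicate 4 (0.0564). Of 28 nuclear receptor and coregulator genes 2 rose and 3 fell, and of 24 clock genes 3 rose and 3 fell. Without the libraries near the other diet none of the clock genes rose and 1 fell. Per3, a clock gene, had 66.4 CPM in the library labelled replicate 4 and 7.12 to 27.3 CPM in the other 24 h livers, against 4.52 to 11.5 CPM at 4 h. Its rise of 1.77 (adjusted p = 0.022) was 1.09 without replicate 4 (0.159) or without that library and the KD library near the other diet (0.117), and the adjusted p was 0.0517 and 0.0692 without KO CD 4 h replicate 2 or 3.

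Genes outside the lists were named by the same rule. Chrna4, a nicotinic receptor subunit, had 10.9, 5.03, 2.4 and 43.1 CPM at 4 h and 3, 1, 2 and 0 counts at 24 h, at or below the level of 3 counts (adjusted p = 3.52e-05). Slc16a5, a monocarboxylate transporter, rose from 3.21 ± 1.83 to 33.1 ± 3.82 CPM (3.35 ± 0.44, adjusted p = 2.14e-05). Trim80, Asic5, an ion channel, and Gjc3, a connexin, rose by 2.73 ± 0.39, 2.24 ± 0.38 and 2.22 ± 0.38. Slc22a7, an organic anion transporter, fell from 46.6 ± 5.72 to 4.48 ± 0.651 CPM. Tuba1b, an alpha tubulin, had the smallest p of all genes, with 36.9, 39.6, 35.8 and 40.6 CPM at 4 h and 9.88, 9.61, 13.6 and 13.1 CPM at 24 h (-1.72 ± 0.15, adjusted p = 6.44e-08). Dpy19l3, a mannosyltransferase, fell by 2.54 ± 0.24, Abca8a, an ABC transporter, by 2.32 ± 0.27, Slc17a4 by 1.94 ± 0.22 and Cyb5b, a cytochrome b5 of mitochondria, by 1.43 ± 0.15. Inca1 (1.21 ± 0.14), Nrbp2 (1.02 ± 0.14) and Tatdn2 (0.82 ± 0.11) rose with small spread.

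Further genes differed between the genotypes or diets. Over all genes the change with fasting differed between KO and WT livers on CD for 88 (0.61%). Slc35f2 was at 7.24 ± 1.79 and 6.57 ± 0.699 CPM in KO livers while WT livers rose by 2.43 ± 0.31 from 0.181 to 0.5 CPM to 1.43 to 2.28 CPM (adjusted p of the difference = 0.00104). KO livers were above WT livers at both times, by 4.37 ± 0.29 and 1.79 ± 0.24 (adjusted p = 6.11e-11 and 7.88e-05). In the WT libraries at 4 h 3 counts correspond to 0.167 to 0.19 CPM, so the lowest WT value lay at that level. The WT rise and the 4 h difference of Slc35f2 therefore rest on few WT reads. Angptl8, a feeding-induced inhibitor of lipoprotein lipase activity, had 16.0, 23.4, 21.9 and 17.1 CPM at 4 h and 47.8, 13.3, 47.3 and 43.8 CPM at 24 h in KO livers, where its groups overlapped through replicate 2 and it did not pass (0.96 ± 0.37, adjusted p = 0.0698). It did pass with DESeq2 (adjusted p = 0.0422), without KO CD 24 h replicate 2 (1.26, adjusted p = 0.0167) and without the libraries with muscle transcripts (1.21, adjusted p = 0.0235). In WT livers it fell by 1.77 ± 0.38, from 33.6 to 58.9 CPM to 4.28 to 19.6 CPM, and the difference of 2.72 ± 0.53 passed (adjusted p = 0.00939, but 0.0605 with only the libraries of KO and WT on CD in the fit). Angptl8 was higher in KO livers at 24 h (1.44 ± 0.38, adjusted p = 0.0409), and the 4 h difference of -1.28 ± 0.37 did not pass (adjusted p = 0.0823). Limd2 gave 0.11 ± 0.15 in KO and fell by 1.05 ± 0.15 in WT (adjusted p of the difference = 0.00478), where it was higher than in KO at 4 h (-0.84 ± 0.14 for KO against WT, adjusted p = 0.000647). Between diets, Ddx19b gave 0.18 ± 0.10 on CD and fell by 0.55 ± 0.10 on KD (adjusted p of the difference = 0.00764), and Mtx3, of the mitochondrial outer membrane, rose by 0.45 ± 0.12 on CD (adjusted p = 0.0116, and 0.0508 without KO CD 4 h replicate 4) against -0.32 ± 0.12 on KD (adjusted p of the difference = 0.0244, up to 0.0768 without 1 library and 0.0735 without those near the other diet). Both genes were higher on KD at 4 h (0.51 ± 0.10 and 0.53 ± 0.12, adjusted p = 0.00229 and 0.00807) and at 24 h did not differ past the threshold (adjusted p = 0.364 and 0.433).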

How the data were processed

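PolyA RNA of 32 livers was sequenced as paired-end TruSeq libraries. The authors deposited read counts per gene and FPKM values, made with TopHat2 2.0.12, Bowtie2 2.2.3 and HTSeq 0.6.1 on GRCm38 per the submitters' processing notes. The annotation release and the strand setting were not stated. The FPKM values that the authors deposited beside the counts were recomputed from counts, gene length and total counts. Where a gene had reads, 100% of them were equal within 0.1%. They were not tested for change. Total counts were 13406678 to 24700310. Replicate numbers follow accession order and pair no samples.

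Counts of 14438 genes kept by filterByExpr were tested with edgeR 4.0.16 (R 4.3.3, TMM scaling, quasi-likelihood F test, 8 group means over all 32 libraries, 24 residual degrees of freedom). P-values were adjusted by Benjamini-Hochberg over all genes and called under 0.05. Differences between genotypes or diets are interaction contrasts of the same fit, and levels at each fasting time were compared in it too, an addition made after the data were seen. Levels are normalised CPM, given as mean ± SD (n = 4), and errors of log2 fold changes are SE. The fit was tested on simulated data, where no library stood apart as some of the real ones did. It recovered 65% of 100 genes with a log2 change of 1 and 99% of 100 with a log2 change of 2, with 6 false calls. Genes that did not pass may therefore still have changed. Alternatives were DESeq2 1.42.0, RLE scaling, total counts, no filter, fewer libraries, robust estimation, and libraries or muscle genes left out.

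Genes were named by rule: Slc27a2, the 12 highest and 12 lowest log2 fold changes and 8 smallest p-values each way (mean of at least 5 CPM, no overlap, no muscle gene), up to 5 per gene list, and 5 each way per interaction, with neighbours and markers. Some genes that the rule names are not reported here. Members and lists were chosen with earlier results of these data known, so the members' counts are descriptions beside the shares of all genes.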

Additional observations from a re-analysis of the deposited data

Results flagged for a closer look

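Among 104 genes examined, 31 differences in the fasting change between groups passed the interaction test. Some of these genes were named for their small p in this same test, so the count reflects the choice of genes. Over all 14438 genes 88 (0.61%) differed between KO and WT on CD, and 201 (1.39%) between CD and KD in KO. Between CD and KD in KO livers the log2 change on CD was lower by the following amounts. In cholesterol synthesis the difference was -5.62 for Fdps, -5.48 for Idi1, -4.19 for Nsdhl and -4.88 for Cyp51. It was -2.07 for Sc5d, -6.05 for Sqle, -3.44 for Insig1 and -1.62 for Fdft1. In lipogenesis it was -4.58 for Fasn, -2.69 for Acly, -2.08 for Acaca and -5.20 for Scd1. Of these, Fdft1 lost the call when 1 library or another was left out (adjusted p up to 0.109, edgeR). Scd1 lost it too, and its difference was -1.57 without KO KD 24 h replicate 4 (adjusted p = 0.469) and -1.17 without both libraries near the other diet (adjusted p = 0.649), so that -5.20 rests on 1 library, which had 3770 CPM of Scd1 against 76.5 to 87.7 CPM in the other 3 of its group. Outside these lists it was -1.67 for Pgd, -2.66 for Fabp5 and -1.09 for Cyb5b, where Fabp5 also lost the call (adjusted p up to 0.145). The level of Pgd, Fabp5 and Cyb5b on KD was lower at 4 h (-1.49, -2.25 and -0.81). The change on CD was higher for Cyp7a1 (4.34), Ddx19b (0.73) and Mtx3 (0.77).

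Between KO and WT livers on CD the log2 change in KO was lower for the genes below, and these are differences of changes that start from 4 h levels which differ between the groups for many of them. The difference was -2.61 for Acaa1b, -3.39 for Ehhadh and -2.98 for Vnn1. It was -6.42 for Cyp4a14, -1.17 for Slc22a5 and -2.74 for Cidec. It was -2.55 for Pfkfb3, -4.08 for Igfbp1, -3.94 for Hspa1b and -2.57 for Slc35f2. The change in KO was higher for Cyp2c70 (1.76), Angptl8 (2.72) and Limd2 (1.17).

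In 11 of 208 groups of 4 libraries 1 library lay far from the other 3, which is close to the share of about 5% of groups that chance gives. The groups share the same libraries, and many genes were named for groups that did not overlap, so this share is only a rough guide. KO CD 4 h replicate 4 was low for Slc27a2 (121 CPM) and high for Pnpla3 (56.2 CPM). KO CD 4 h replicate 2 was high for Cth (297 CPM), Ugt2b38 (16.1 CPM), Hsd3b5 (352 CPM) and Pdia6 (341 CPM) and low for Mcm5 (1.39 CPM). KO CD 4 h replicate 3 was high for Mt1 (19.9 CPM) and Trim80 (3.09 CPM). KO CD 24 h replicate 2, which holds muscle transcripts, was high for Cidec (68.0 CPM) and low for Angptl8 (13.3 CPM).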

How the results depend on the processing

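No paired analysis was possible because the replicate numbers follow accession order and mark no shared animal, litter or batch. The long fast in KO livers on CD changed 2703 genes, and 1536 to 3434 with single libraries left out, the lowest without KO CD 24 h replicate 3 and the highest without KO CD 24 h replicate 1. Without the libraries with muscle transcripts 4259 genes passed, of which 2250 passed in the same direction over all libraries, and 5 of the 2703 had the other sign. The difference between the genotypes (88 genes) gave 216 genes with DESeq2, 29 with the libraries of the comparison alone, 810 without the libraries with muscle transcripts and 350 when those near the other diet were left out too, an alternative chosen after seeing the data. Single libraries left out gave 44 to 124. The difference between the diets (201 genes) gave 451 with DESeq2, 117 with the libraries of the comparison alone, 578 without the libraries with muscle transcripts, 96 without those near the other diet, 1 without both and 103 without the muscle genes. Single libraries left out gave 51 to 383. Scaled by total counts it gave 398 genes, 340 higher and 58 lower against 87 and 114, with the median of all genes at 0.31 instead of 0.04. The cause of these shifts was not tested. For 104 named genes under the alternatives, 1748 of 1870 values kept their side of the threshold and sign, 103 lost the call and 9 gained it. Of 9 further values, uncalled either way in 4 genes (Cpt1a, Ehhadh, Limd2 and Slc35f2), the sign changed. The call and sign both changed for the muscle gene Des (-0.07 without the libraries with muscle transcripts). All other alternatives left the 3 counts within 1.5 times. Genes at or below 3 counts per library have no usable fold change.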
